A study of Danio rerio with 16 samples.

Results

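Transcripts of pre-mRNA splicing factor genes were followed across the 16 zebrafish arrays of this study. The set holds the 101 probe sets, of the 15502 on the array that are not controls, whose only gene symbol begins with sf3a, sf3b, snrp, srsf, sfrs, prpf, lsm and a digit, hnrn, hnrp or u2af. They stand for 77 genes, 16 of them with several probe sets. By role, 12 probe sets belonged to SF3a and SF3b, 3 to U2AF, 11 to Sm and snRNP-specific proteins, 17 to LSm proteins, 14 to PRPF proteins, 16 to SR proteins and 28 to hnRNP proteins. The choice went by name, so the set also takes in genes whose products work outside the spliceosome, such as lsm1 (mRNA decay) and lsm11 (the U7 snRNP of histone mRNA processing). Of the 17 LSm probe sets, 13, for 7 genes, are of genes other than lsm4, lsm6, lsm7 and lsm8.

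Splicing removes introns from new transcripts through small nuclear ribonucleoproteins, or snRNPs, each a small nuclear RNA held in a ring of Sm or LSm proteins. U2AF marks the end of the intron, SF3a and SF3b hold the U2 snRNP at the branch point, and PRPF proteins have varied parts in the spliceosome. SR proteins mostly favour the use of the exons they bind, while hnRNP proteins often oppose it and also act on the export, stability and translation of mRNA. Much of splicing takes place while RNA polymerase II is still transcribing. Foggy is the zebrafish name of supt5h, the gene of Spt5, which with Spt4 forms the elongation factor DSIF on that polymerase.

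At the stage labelled 36 h, 6 samples were labelled foggy mutant and 4 wild type, with the material described as embryonic brain. At 12 somites, 3 samples came from embryos injected with an RNA named Foggy(DelCter) and 3 from embryos injected with a control RNA. Each sample was read on 1 array. The labels name no allele, strain or control RNA, a source field common to every sample also names adrenal medulla, and nothing says that replicates came from separate animals, so p-values reflect the spread among the arrays at hand, and that spread may be only technical. The 36 h arrays were split by their title numbers: 3 mutant and 3 wild type arrays carry numbers 4 to 6, and 3 arrays labelled mutant and 1 wild type array carry numbers 1 to 3.

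The number split followed large differences in the arrays. Summed signal of 13 neuronal marker probe sets was 14372 to 14542 on mutant-labelled arrays 1 to 3 and 14401 on wild type array 1, but 1950 to 2272 on mutant arrays 4 to 6 and 3686 to 4361 on wild type arrays 4 to 6. Summed signal of 4 yolk and liver probe sets was 117 to 145 and 127 on the arrays numbered 1 to 3, and 32235 to 34825 and 29505 to 31606 on those numbered 4 to 6. The yolk markers on numbers 4 to 6 go beyond what a label of brain alone names. The targeted gene supt5h read 40.1, 47 and 38.6 intensity units on mutant arrays 4 to 6, against 197, 231 and 166 on wild type arrays 4 to 6, a log2 difference of -1.88 ± 0.14 (SE, adjusted p = 4.3e-05). It read 258, 245 and 254 on the arrays labelled mutant 1 to 3, against 209.8 on wild type array 1, so the lower supt5h signal of numbers 4 to 6 was not seen there, and those arrays are called mutant-labelled. Some other markers differed in numbers 1 to 3 the same way as in numbers 4 to 6. Summed signal was 2122 to 2234 on the mutant-labelled arrays and 9847 on the wild type array for red blood cells. It was 1282 to 1381 and 4018 for skeletal muscle, and 179.7 to 218 and 588 for heart muscle. Others did not keep the difference of numbers 4 to 6. The median log2 difference was 0.015 in numbers 1 to 3 and -0.69 in numbers 4 to 6 for neuronal markers. It was 0.14 and -0.43 for neural progenitor markers, and -0.21 and -0.94 for dividing-cell markers. Array medians were 65.7 to 66.4 units for numbers 1 to 3 and 46.7 to 53.1 for all others, and 17 unused control probe sets, which measure background, reached at most 10.8 to 34.4 units per array. No splicing factor probe set lay within that background on every array.

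In numbers 4 to 6, 18 of 97 splicing factor probe sets passed the test between mutant and wild type, a share of 18.6% where 19.5% of all probe sets tested passed. The 9 that passed upward were 3 of 10 Sm and snRNP-specific probe sets, 4 of 11 for SF3a and SF3b and 2 of 4 for the LSm ring of U6 (lsm4, lsm6, lsm7 and lsm8 here), where 8.13% of all probe sets passed upward. The U6 ring is a part of the LSm class, which gave 2 of 15 as a whole. It was set apart from that class with earlier results of these data known, so its 2 of 4 is a description only. The 9 that passed downward were 6 of 28 hnRNP, 2 of 16 SR and 1 of 14 PRPF probe sets, where 11.3% of all passed downward, so the SR and PRPF counts are near that background. Most probe sets of each class except the U6 ring did not pass, and no class was tested as a group. Leaving out 1 array can take the SF3a and SF3b or the U6 ring count to 0, where the share over all probe sets is not given. The largest fall was in hnrnpa0a, -1.22 ± 0.12 on the log2 scale, and the largest rise in snrpd3, 0.79 ± 0.11 (SE, n = 3 against 3).

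A probe set is called when its adjusted p, from limma with Benjamini-Hochberg adjustment over the 10851 probe sets tested, is under 0.05, and differences are of log2(intensity + 16), which understates the change of dim genes. The 9 splicing factor probe sets called higher were 9.28%, beside 8.13% of all, and the 9 called lower were 9.28%, beside 11.3% of all, so the number of calls was close to the background of the array. Every mutant array was above every wild type array for 20 splicing factor probe sets (20.6%, beside 21.2% of all), and below for 23 (23.7%, beside 18.4% of all). The median log2 difference was -0.031 over the splicing factor probe sets and 0.027 over all tested. By class, the median was 0.36 for SF3a and SF3b, 0.34 for Sm and snRNP-specific proteins and 0.43 for the U6 LSm ring, and 8 of 11, 9 of 10 and 4 of 4 of their probe sets lay above 0. It was -0.31 for hnRNP and -0.15 for SR proteins, with 26 of 28 and 12 of 16 below 0. Medians near 0 were found for PRPF proteins (0.062), U2AF (0.015) and the LSm proteins outside the U6 ring (-0.022), where 1 of 14 was called lower, none of 3 and none of 11 called. Over all 15 LSm probe sets tested, inside and outside the ring, the median was 0.098, with 9 above 0.

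**Figure D1:**
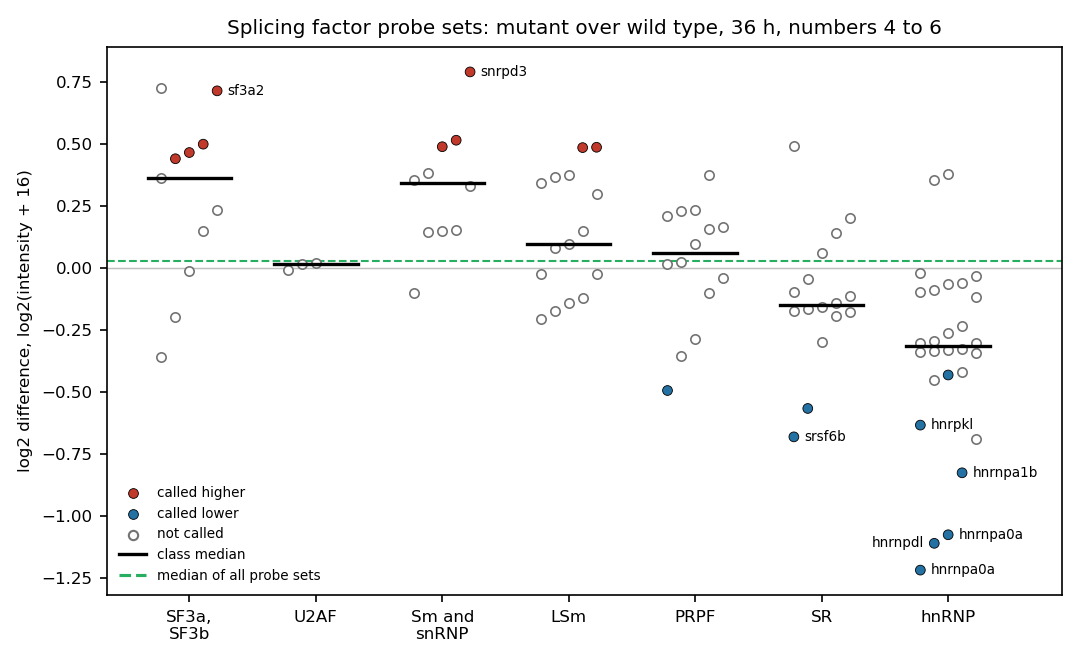
Log2 difference of each splicing factor probe set, mutant over wild type in numbers 4 to 6, by role. Filled points passed the test and open points did not, black bars mark class medians and the green dashed line marks the median of all probe sets tested (0.027). SF3a and SF3b, Sm and U6 LSm points lie mostly above 0, and 26 of 28 hnRNP points lie below it.

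The 9 lower calls stood for 8 genes, and 6 of the calls were of hnRNP probe sets, more than 1 of them of hnrnpa0a. For hnrnpa0a, whose product is an RNA-binding protein of the A/B family, 1 probe set read 566, 572 and 508 on the mutant arrays, against 1307, 1393 and 1191 on the wild type arrays. All 3 mutant values lay below every wild type value, with means of 549 ± 34.8 and 1297 ± 101 (SD, n = 3 each) and a log2 difference of -1.22 ± 0.12 (SE, adjusted p = 0.000177). A second probe set of the same transcript cluster gave -1.07 ± 0.12 (SE, adjusted p = 0.000418), with 675, 720.4 and 756 in mutants and 1629, 1606 and 1358 in wild types. Another hnrnpa0a probe set, from a different cluster, read 86.3, 120.4 and 90.4 in mutants and 76.4, 99.8 and 47 in wild types and was not called (0.38 ± 0.21, SE, adjusted p = 0.234), so the gene's probe sets disagree.

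The gene hnrnpdl encodes an hnRNP D-like protein that binds AU-rich mRNA. Its probe set read 516, 504 and 600.1 in mutants and 1277, 1046 and 1227 in wild types. Those values do not overlap, and the log2 difference was -1.11 ± 0.13 (SE, adjusted p = 0.000487). The gene hnrnpa1b encodes an hnRNP A1, a classic repressor of exon use, and read 1140.4, 1080.3 and 1181 in mutants and 1849, 2165 and 2056 in wild types. Its groups were also apart, with a log2 difference of -0.82 ± 0.12 (SE, adjusted p = 0.00148). The KH-domain gene hnrpkl fell by 0.63 ± 0.12 on the log2 scale (SE, adjusted p = 0.00734), and read 108, 96.2 and 123 in mutants and 181, 182 and 169 in wild types. The last called member, hnrnpul1, an hnRNP U-like gene, gave -0.43 ± 0.12 (SE, adjusted p = 0.0348), with 379, 306 and 347 in mutants and 477, 487 and 439.7 in wild types.

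Among SR genes, whose products bind exonic enhancers, srsf6b and srsf3b were called. Signal of srsf6b was 503, 428 and 554 in mutants and 744, 797 and 857 in wild types. Signal of srsf3b was 572, 582 and 526.0 in mutants and 876, 802 and 831 in wild types. Both genes had every mutant array below every wild type array, with log2 differences of -0.68 ± 0.13 (SE, adjusted p = 0.00729) for srsf6b and -0.57 ± 0.11 (SE, adjusted p = 0.0081) for srsf3b. The largest upward SR value, chosen after its values were seen, was srsf10b at 0.49 ± 0.16 (SE, adjusted p = 0.0615), which did not pass the test. The PRPF gene prpf38b read 119.5, 105 and 100 in mutants and 163, 148 and 164 in wild types, a log2 difference of -0.49 ± 0.12 (SE, adjusted p = 0.0176).

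The 9 higher calls stood for 8 genes, all of Sm, SF3a, SF3b or U6 ring proteins, with sf3a2 called by more than 1 probe set. SmD3, encoded by snrpd3, is 1 of the proteins of the Sm ring. Its probe set read 693, 722 and 721 in mutants and 424, 422 and 372 in wild types. Every mutant array was above every wild type array, with means of 712 ± 16.1 and 406 ± 29.5 (SD, n = 3 each) and a log2 difference of 0.79 ± 0.11 (SE, adjusted p = 0.00155). For SmE, snrpe read 2744, 2681 and 2557 in mutants and 1779, 1984 and 1814 in wild types, a log2 difference of 0.51 ± 0.11 (SE, adjusted p = 0.0119). For SmF, snrpf read 3101, 3454 and 3008 in mutants and 2569.8, 2506 and 1799.7 in wild types, a log2 difference of 0.49 ± 0.15 (SE, adjusted p = 0.0499) that lies at the edge of the threshold. Neither gene's groups overlapped.

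In the U2 snRNP, sf3a2, an SF3a subunit, read 981, 1182 and 947 in mutants and 718, 704 and 478 in wild types. The groups were apart, and the log2 difference was 0.71 ± 0.17 (SE, adjusted p = 0.0181). A second sf3a2 probe set, of a design that may cross-hybridise with other transcripts, gave 0.44 ± 0.14 (SE, adjusted p = 0.0489). The small SF3b subunits encoded by sf3b6, which contacts the branch point, and sf3b5 gave 0.50 ± 0.12 (SE, adjusted p = 0.0167) and 0.47 ± 0.14 (SE, adjusted p = 0.0451). Signal of sf3b6 was 846, 851 and 721 in mutants and 549, 566 and 578 in wild types, and that of sf3b5 was 1146, 1157 and 1247 in mutants and 975, 909 and 698 in wild types. In neither gene did the groups overlap. Another SF3b subunit, sf3b4, chosen after its values were seen, read 635, 451 and 313 in mutants and 341, 338 and 159 in wild types. Its groups overlapped, and 0.73 ± 0.30 (SE, adjusted p = 0.119) did not pass the test. The SF3b subunit sf3b3, also chosen with its values in view, went the other way. It read 617, 586 and 486 in mutants and 759, 745 and 665 in wild types, without overlap. Its log2 difference of -0.36 ± 0.13 (SE, adjusted p = 0.0783) was not called, but limma with the number as a block called it lower in numbers 4 to 6 (adjusted p = 0.0427).

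The U6 ring gave lsm8, whose product is found in the U6 ring and not in the LSm ring of mRNA decay. It also gave lsm6, whose product is not particular to the U6 ring. Signal of lsm8 was 1243, 1374 and 1149.8 in mutants and 974, 932 and 778 in wild types, a log2 difference of 0.48 ± 0.13 (SE, adjusted p = 0.0293). Signal of lsm6 was 670.3, 578 and 649 in mutants and 426, 401 and 519 in wild types, a log2 difference of 0.49 ± 0.13 (SE, adjusted p = 0.0301). All mutant arrays exceeded all wild type arrays in both.

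Of the 79 probe sets tested and not called, differences ran from -0.69 for 1 of hnrnpd to 0.73 for sf3b4. The other 4 probe sets, 1 each of sf3b4, snrpd2, lsm14aa and lsm14b, were too dim for the filter. The brightest probe set of each class, by its mean over the 16 arrays, gave a log2 difference of -0.031 ± 0.16 (SE, adjusted p = 0.917) for hnrnpa0l, 0.062 ± 0.15 (SE, adjusted p = 0.813) for srsf11, an SR protein, and 0.016 ± 0.16 (SE, adjusted p = 0.958) for prpf19, a ubiquitin ligase of the spliceosome. It gave 0.019 ± 0.12 (SE, adjusted p = 0.933) for u2af2b, the large U2AF subunit, 0.37 ± 0.15 (SE, adjusted p = 0.112) for lsm7 of the U6 ring and 0.23 ± 0.12 (SE, adjusted p = 0.203) for sf3b1, the largest SF3b subunit. These 6 did not pass the test, while snrpf, the brightest Sm probe set by that mean, is among the calls above.

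**Figure D2:**
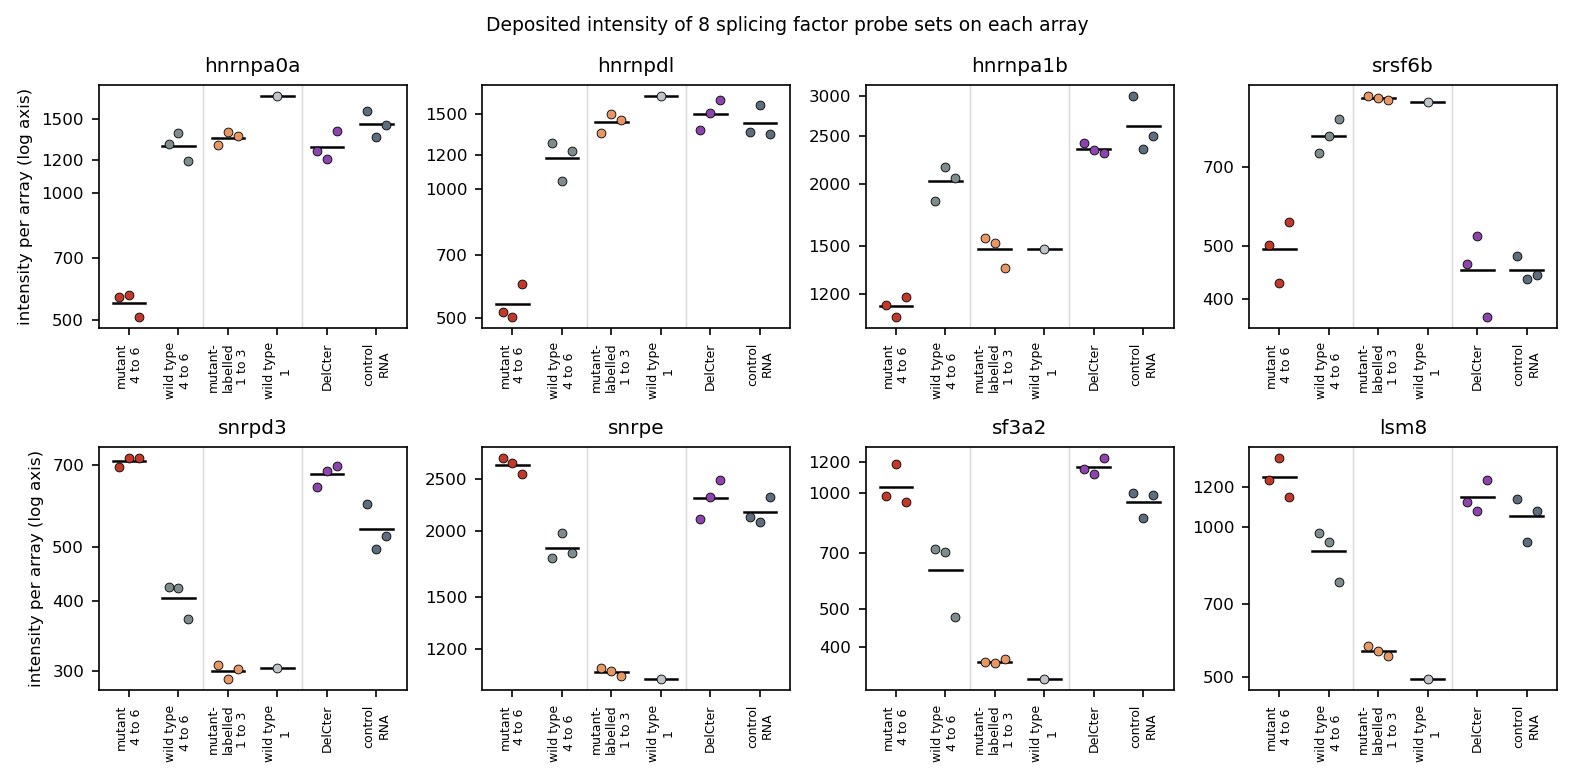
Intensity on each array (log axis) of 8 splicing factor probe sets in 6 columns of arrays: mutant and wild type numbers 4 to 6, mutant-labelled numbers 1 to 3 and wild type number 1, Foggy(DelCter) RNA and control RNA. Black bars are group means; the hnRNP and SR genes lie lower on mutant than on wild type arrays 4 to 6, and snrpd3, snrpe, sf3a2 and lsm8 higher.

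Other transcripts moved with these groups. Summed signal of 12 dividing-cell marker probe sets was 6489 to 7081 on mutant arrays 4 to 6 and 11898 to 12677 on wild type arrays 4 to 6, with 9 of 11 tested called lower. Neuronal markers were called lower for 11 of 13 tested, neural progenitor markers for 3 of 9 (2195 to 2783 in sum on mutant arrays, against 3674 to 3902 on wild type arrays), skeletal muscle markers for 9 of 9 (2597 to 4959, against 21083 to 36796) heart muscle markers for 3 of 3 (84.0 to 104.7, against 839 to 925) and red blood cell markers for 6 of 6 (3689 to 6246, against 12529 to 17349.5). Epidermal markers ran the other way, at 21947 to 23613 on mutant arrays and 18714 to 19832 on wild type arrays with 1 of 3 called higher. None of the 4 yolk and liver markers and none of the 5 brain region markers tested was called. No marker probe set was at 0 on all arrays of a group. In such bulk samples, fewer cells of a type and less RNA per cell cannot be told apart, and the part of cell makeup in the hnRNP, SR, Sm, SF3 and LSm differences was not tested. The log2 ratio of 3' to 5' GAPDH signal, a sign of RNA quality, was 0.52 to 0.84 on the mutant arrays and 0.52 to 0.61 on the wild type arrays, and its part was not tested either. Array 6 had the lowest summed splicing factor signal of each group, 63105 in the mutant, against 62214 in the wild type.

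Leaving out 1 array at a time gave 10 to 17 calls in all, 10 without mutant array 5 and 11 without wild type array 5. The share of all probe sets called also changes with the setting and is not given for these fits. The counts therefore do not set splicing factors apart from other probe sets. It gave 5 to 9 lower hnRNP calls and 2 lower SR calls each time, but 1 or 2 higher Sm calls, 0 to 2 higher calls in the U6 ring (0 without mutant array 4 or wild type array 5) and 0 to 3 for SF3a and SF3b (0 without mutant array 5). The class medians of SF3a and SF3b, Sm, U6 ring, SR and hnRNP kept their sign each time. Of the 18 calls, 8 passed the threshold in the same direction under each of the 13 or 14 other settings tried for them: both hnrnpa0a probe sets, hnrnpdl, hnrnpa1b, hnrpkl, srsf3b, srsf6b and snrpd3.

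Over all 36 h arrays, 6 labelled mutant (3 of which kept supt5h signal) against 4 wild type, none of 96 splicing factor probe sets was called by limma, where 0.221% of all were, and 5 (5.21%) had an unadjusted p under 0.05, where 9.24% of all did. With the number as a block, on the arrays numbered 1, 4, 5 and 6 only, 11 of 97 were called (11.3%, where 9.52% of all were). That fit left out the mutant-labelled arrays with no same-numbered wild type array. With the number set as a block, over all 36 h arrays, 16 of 96 were called (16.7%, where 13.1% of all were). Both fits reuse the arrays numbered 4 to 6, so they are not separate from the calls there. With the number as a block, the values were -0.84 ± 0.17 for the second hnrnpa0a probe set (SE, adjusted p = 0.0186), -0.89 ± 0.16 for hnrnpdl (adjusted p = 0.0114), 0.57 ± 0.15 for snrpd3 (adjusted p = 0.0439) and 0.52 ± 0.14 for sf3a2 (adjusted p = 0.0464). Not all hnRNP and SR calls of that fit were lower. An hnrnpa0b probe set (0.42 ± 0.11, adjusted p = 0.0478) and srsf10b (0.49 ± 0.11, adjusted p = 0.0256) were called higher. With the number set as a block, srsf10b was again called higher (0.42 ± 0.12, adjusted p = 0.044). In numbers 1 to 3, with 3 mutant-labelled arrays against 1 wild type array and the spread pooled over groups, 0 of 96 were called, where 0.728% of all were, and 5 (5.21%) had an unadjusted p under 0.05, where 10.3% of all did. The lone wild type array is assumed there to vary like the other groups.

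**Figure D3:**
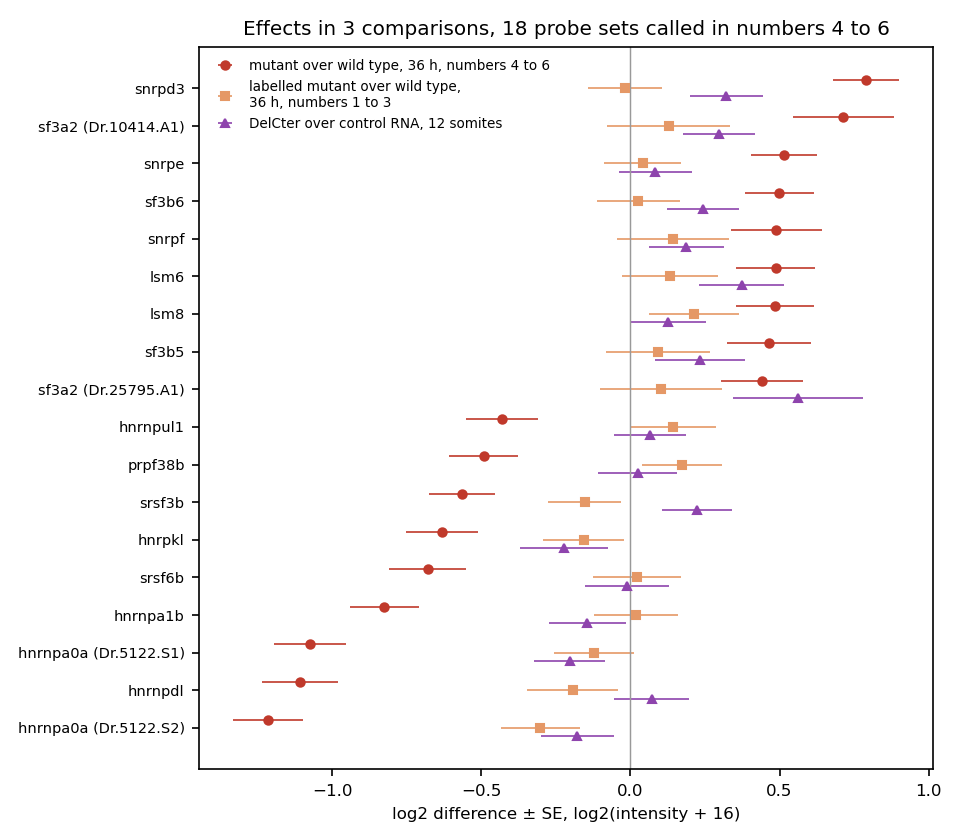
Log2 difference with its SE for the 18 probe sets called in numbers 4 to 6, shown for numbers 4 to 6, for numbers 1 to 3 and for Foggy(DelCter) RNA over control RNA at 12 somites. The 18 probe sets were chosen by the first of these, which is therefore a description; for both hnrnpa0a probe sets and hnrnpdl the other values lie closer to 0.

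The difference between arrays labelled mutant and wild type itself differed between the number sets for 5 of 96 splicing factor probe sets (5.21%, where 3.29% of all were called), 4 of them lower (4.17%, where 2.39% of all were) and 1 higher (1.04%, where 0.903% of all were). This contrast subtracts the labelled mutant over wild type difference in numbers 1 to 3 from that in numbers 4 to 6. It was -0.92 ± 0.16 (SE, adjusted p = 0.0136) and -0.88 ± 0.16 (SE, adjusted p = 0.0153) for the hnrnpa0a probe sets, -0.88 ± 0.19 (SE, adjusted p = 0.0281) for hnrnpdl and -0.86 ± 0.17 (SE, adjusted p = 0.0225) for hnrnpa1b. It was 0.75 ± 0.15 (SE, adjusted p = 0.0233) for snrpd3. In numbers 1 to 3, hnrnpdl read 1352, 1492 and 1445 on the mutant-labelled arrays and 1652 on the wild type array, and snrpd3 read 308, 290.5 and 303, against 304. The mutant-labelled arrays 1 to 3 kept supt5h signal, so this contrast rests on their labels. Without mutant-labelled array 2 it called 2 splicing factor probe sets, and without array 3 it called 3.

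Set against each other, the mutant-labelled arrays 1 to 3 and 4 to 6 differed in most splicing factors. With numbers 1 to 3 over 4 to 6, 74 of 96 probe sets were called (77.1%, where 70.6% of all were), 41 higher (42.7%, where 33.6% of all were) and 33 lower (34.4%, where 36.9% of all were). Of 28 hnRNP probe sets 21 were called higher and none lower, while 8 of 10 Sm and 7 of 11 SF3a and SF3b probe sets were called lower and 1 of each higher. SR proteins gave 8 higher and 3 lower of 16, PRPF proteins 3 higher and 9 lower of 14. These arrays are quantile normalized, and SEs and p-values use the spread pooled over all 36 h arrays, wild type included. As deposited, the median of all probe sets was shifted by 0.14, and the classes gave 16 higher and 1 lower for hnRNP, 0 and 9 for Sm, 1 and 6 for SF3a and SF3b, and 3 and 6 for PRPF. The share of higher calls over all probe sets was then 58.7%, beside 47.7% in quantile values.

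The largest difference, chosen after its values were seen like the others named for this contrast, was that of srsf5b, an SR gene, with 2099, 2146 and 2136 on numbers 1 to 3 and 642, 618 and 468 on numbers 4 to 6 (2.06 ± 0.12, SE, adjusted p = 2.6e-08). The decay ring gene lsm1 read 123, 106 and 110.4 on numbers 1 to 3 and 23.6, 23.4 and 21 on numbers 4 to 6 (1.45 ± 0.10, SE, adjusted p = 9.68e-08). In the other direction, snrpb, which encodes SmB, read 534, 501 and 484 on numbers 1 to 3 and 1434, 1585 and 1208 on numbers 4 to 6 (-1.30 ± 0.14, SE, adjusted p = 6.75e-06). Groups were apart in all 3 genes. Genes called in the mutants of numbers 4 to 6 share those arrays with this contrast, and for them it gave 1.56 for hnrnpdl, 1.48 for the first hnrnpa0a probe set, -1.13 for snrpd3 and -1.34 for sf3a2. Neuronal markers were called higher for 13 of 13 tested and yolk and liver markers lower for 4 of 4, and the GAPDH log2 ratio was 0.83 to 0.95 on numbers 1 to 3 and 0.52 to 0.84 on numbers 4 to 6. The part of these in the splicing factor differences was not tested.

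At 12 somites the injected Foggy(DelCter) RNA went with 2 calls among the splicing factors, while most of their log2 differences were small and above 0. Of 99 splicing factor probe sets tested, 2 were called (2.02%), where 11.3% of all were, 1 higher (1.01%, where 3.72% of all were) and 1 lower (1.01%, where 7.55% of all were). The members' median log2 difference was 0.091, beside -0.018 for all tested, and 73 of 99 lay above 0 (73.7%, beside 47.1% of all). Every Foggy(DelCter) array was above every control array for 22 (22.2%, beside 13.3% of all) and below for 7 (7.07%, beside 17.6% of all). Above 0 were 10 of 11 SF3a and SF3b, 8 of 10 Sm, 13 of 17 LSm, 10 of 14 PRPF, 13 of 16 SR and 16 of 28 hnRNP probe sets, and the class medians ran between 0.017 for hnRNP and 0.14 for SF3a and SF3b.

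The call upward was hnrnpd, which encodes AUF1, a protein known for binding AU-rich mRNA. That probe set read 676, 697 and 644 with Foggy(DelCter) RNA and 478, 518 and 429 with control RNA, a log2 difference of 0.49 ± 0.12 (SE, adjusted p = 0.0254). The values did not overlap, but a second, dim hnrnpd probe set read 29, 32.2 and 38.7 with Foggy(DelCter) RNA and 40.6, 43.9 and 56.7 with control RNA and was not called (-0.35 ± 0.14, SE, adjusted p = 0.13). The call downward was 1 of 4 probe sets of hnrnpa0b, another A/B family gene, at 95.8, 102 and 101 with Foggy(DelCter) RNA and 141, 125 and 182 with control RNA (-0.50 ± 0.14, SE, adjusted p = 0.0427). Its brightest probe set read 4378, 4201 and 4326 with Foggy(DelCter) RNA and 3467, 3461 and 3743 with control RNA, higher on every array and not called (0.27 ± 0.11, SE, adjusted p = 0.155). Same-numbered 12-somite arrays deviated together, and with the number as a block 5 of 99 were called (5.05%, where 14.8% of all were): hnrnpd (adjusted p = 0.0204), prpf4ba (0.0287), lsm12b (0.0421) and the sf3a2 probe set that may cross-hybridise (0.0332) higher, and hnrnpa0b (0.033) lower. Both calls of the fit without the block were lost with no filter, with a pseudocount of 1 and without control array 1 or 3 or any 1 Foggy(DelCter) array.

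For the genes called in the mutants, the 12-somite differences were 0.072 ± 0.13 (SE, adjusted p = 0.766) for hnrnpdl and -0.18 ± 0.12 (SE, adjusted p = 0.394) for the first hnrnpa0a probe set. They were 0.32 ± 0.12 (SE, adjusted p = 0.119) for snrpd3 and 0.30 ± 0.12 (SE, adjusted p = 0.142) for sf3a2. A contrast of the mutant difference minus the Foggy(DelCter) difference called 7 of 98, all lower (7.14%, where 10.6% of all were called, 4.88% lower and 5.7% higher). It shares the arrays numbered 4 to 6 and those of 12 somites with the comparisons above. Stage, material and mutation or injection differ together between those comparisons and cannot be told apart. The 7 were hnrnpdl at -1.18 ± 0.18 (SE, adjusted p = 0.000487), hnrnpa0a at -1.04 ± 0.16 (SE, adjusted p = 0.000741) and -0.87 ± 0.16 (SE, adjusted p = 0.00282), srsf3b at -0.79 ± 0.15 (SE, adjusted p = 0.00351), hnrnpa1b at -0.68 ± 0.17 (SE, adjusted p = 0.0166), srsf6b at -0.67 ± 0.19 (SE, adjusted p = 0.0376) and 1 hnrnpa0b probe set at -0.61 ± 0.16 (SE, adjusted p = 0.0222). No Sm, SF3 or LSm probe set was called by this contrast, which gave 0.47 ± 0.16 for snrpd3 (SE, adjusted p = 0.0706). None was called at 12 somites in the fit without the block. With the number as a block, limma called lsm12b (adjusted p = 0.0421) and the sf3a2 probe set that may cross-hybridise (adjusted p = 0.0332) higher there. For SF3 and LSm the 12-somite result thus depends on the fit, while no Sm probe set was called in either fit. A missing call in the contrast does not show that the differences are alike. At 12 somites supt5h read 477, 393 and 414 with Foggy(DelCter) RNA and 436, 393 and 397 with control RNA (0.061 ± 0.12, SE, adjusted p = 0.802), on probes whose place in the transcript is not known here. Neuronal markers were called lower for 4 of 10 tested (1024 to 1051 in sum with Foggy(DelCter) RNA and 1510 to 1560 with control RNA) and yolk and liver markers for 4 of 4 (7752 to 8808, against 15785 to 17310.3). Red blood cell and brain region markers were each called lower for 2 of 5, and 1 of 11 dividing-cell markers was called higher. The GAPDH log2 ratio was 0.60 to 0.89 with Foggy(DelCter) RNA and 0.42 to 0.63 with control RNA. Their part in these differences was not tested.

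Levels summed over a class, as deposited, show the same arrays side by side. The 28 hnRNP probe sets summed to 21141 to 22773 units on mutant arrays 4 to 6, against 25720 to 30038 on wild type arrays 4 to 6, and these ranges do not overlap. On the arrays numbered 1 to 3 they summed to 25975 to 26559 for those labelled mutant, against 27133 for the wild type. The 11 Sm and snRNP-specific probe sets summed to 13797 to 14760.1 on mutant arrays 4 to 6, against 10074 to 12184 on wild type arrays 4 to 6, again without overlap, and on the arrays numbered 1 to 3 to 8150.0 to 8344 for those labelled mutant, against 7880.1 for the wild type. SF3a and SF3b (6452 to 7472 in mutants, against 4847 to 6178 in wild types) and LSm sums (5269 to 6051, against 4466 to 4926) of numbers 4 to 6 did not overlap either, while SR sums did (9895 to 11039, against 10785.5 to 12118). At 12 somites, the hnRNP sums were 38113 to 40058 with Foggy(DelCter) RNA and 36474 to 41217 with control RNA, which overlap. The Sm sums were 17128 to 18449 with Foggy(DelCter) RNA and 15159 to 16246 with control RNA, which do not. The 12 SF3a and SF3b probe sets gave 9739 to 10187 with Foggy(DelCter) RNA and 8579 to 9668 with control RNA, and the 14 PRPF probe sets 8610.2 to 9064 with Foggy(DelCter) RNA and 8086 to 8303 with control RNA, both without overlap. LSm (6390.5 to 7199 with Foggy(DelCter) RNA, against 5394 to 6360.4 with control RNA), SR (16108 to 16548, against 14861 to 15936) and U2AF sums (3309 to 3368, against 2869.6 to 3274) did not overlap either. Summed over all splicing factor probe sets, the 12-somite ranges did overlap, at 99397 to 104873 with Foggy(DelCter) RNA and 93732 to 100892 with control RNA. Array medians there were 46.7 to 47.7 units with Foggy(DelCter) RNA and 49.9 to 51.3 with control RNA, and the part of scaling was not tested. Sums are led by the brightest probe sets and carry no test, and no share over all probe sets is given beside them.

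Between stages, splicing factor transcripts were mostly lower in the 36 h wild type arrays 4 to 6 than in 12-somite control embryos. The summed signal of the 101 probe sets was 62214 to 72412 at 36 h and 93732 to 100892 at 12 somites. Of 98 tested, 72 were called (73.5%, where 57.1% of all were), 64 lower (65.3%, where 32.5% of all were) and 8 higher (8.16%, where 24.7% of all were). The median log2 difference was -0.52, beside -0.097 for all tested. Lower calls numbered 13 of 14 PRPF, 9 of 11 SF3a and SF3b, 7 of 10 Sm, 9 of 16 LSm, 8 of 16 SR and 16 of 28 hnRNP probe sets. Stage, material and injection differ together between these groups and cannot be told apart. The arrays are those that served as wild type in numbers 4 to 6 and as controls at 12 somites. Skeletal muscle markers were called higher at 36 h for 9 of 9 tested, neuronal markers for 11 of 13, and dividing-cell markers for 3 of 11 with 2 lower. Red blood cell markers were called higher for 5 of 6, heart muscle for 3 of 3, yolk and liver for 4 of 4, and neural progenitor for 2 of 9 with 1 lower. Brain region markers were called lower for 4 of 5 and epidermal markers for 2 of 3.

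The examples for the stages were picked with their values in view. The SF3b subunit sf3b4 read 341, 338 and 159 at 36 h and 1143, 803 and 869 at 12 somites, a log2 difference of -1.75 ± 0.25 (SE, adjusted p = 0.00019). The SF3a subunit sf3a1 read 359, 291 and 206 at 36 h and 657, 793 and 744 at 12 somites (-1.34 ± 0.18, SE, adjusted p = 0.000113). Every 36 h array was below every 12-somite array in both genes. Higher at 36 h were 2 SR probe sets, srsf6b at 0.80 ± 0.12 (SE, adjusted p = 0.00021) and 1 of srsf1b at 0.67 ± 0.13 (SE, adjusted p = 0.0013), and 3 hnRNP probe sets, of hnrnpa0a at 0.87 ± 0.12 (SE, adjusted p = 0.000158), of hnrnpd at 1.19 ± 0.28 (SE, adjusted p = 0.00445) and of hnrnpl at 0.45 ± 0.13 (SE, adjusted p = 0.0138). Other probe sets of some of these genes disagreed: of hnrnpa0a, 1 was called lower at -0.86 ± 0.20 (SE, adjusted p = 0.00365) and 1 was not called at -0.17 ± 0.12 (SE, adjusted p = 0.249), and the second probe sets of hnrnpd (-0.077) and srsf1b (0.061) were not called. The SF3b subunit sf3b5 gave 0.72 ± 0.15 (SE, adjusted p = 0.00222) and the LSm gene lsm4 0.59 ± 0.13 (SE, adjusted p = 0.00224). The last was 1 of 3 probe sets of prpf8, the core protein of the U5 snRNP, at 0.76 ± 0.17 (SE, adjusted p = 0.00292), while the gene's other probe sets gave -0.55 and -0.41, so that the stage difference of prpf8 depends on the probe set.

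**Figure D4:**
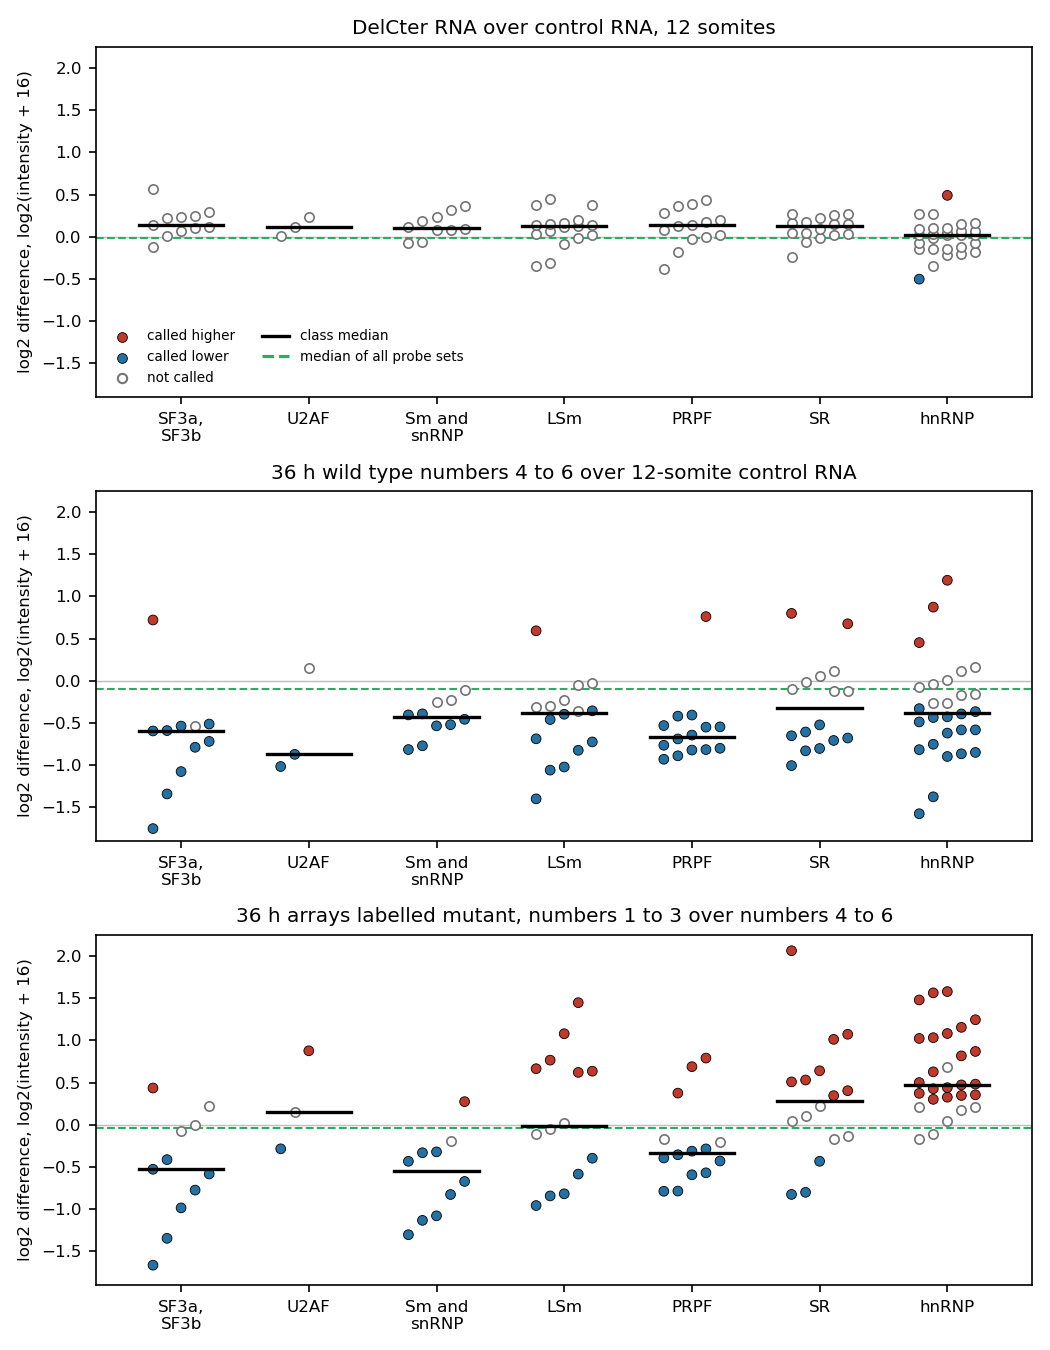
Log2 differences of splicing factor probe sets by role in 3 comparisons: Foggy(DelCter) over control RNA at 12 somites, 36 h wild type arrays 4 to 6 over 12-somite control RNA, and mutant-labelled arrays 1 to 3 over 4 to 6. Filled points passed the test; the 12-somite points lie close to 0, the stage points mostly below it, and the number sets place hnRNP above and Sm and SF3 below 0.

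Beyond the set, a list of 168 other splicing genes, of which 131 were measured by 169 probe sets, gave 10 higher and 25 lower of 165 tested in numbers 4 to 6 (21.2%, where 19.5% of all were called). The lower calls were led by rbfox1l, a muscle splicing regulator, which read 72.1, 73.5 and 93.7 in mutants and 596, 611 and 626 in wild types (-2.72 ± 0.12, SE, adjusted p = 1.43e-06). Its groups were far apart, on arrays where all 9 tested skeletal muscle markers were also called lower. Other lower calls with small p were ptbp2b, a neuronal repressor of exon use, at -1.02 ± 0.15 (SE, adjusted p = 0.00157), elavl1a, which encodes the mRNA-binding protein HuR, at -0.91 ± 0.12 (SE, adjusted p = 0.000923), and khdrbs1a, which encodes Sam68, at -0.85 ± 0.14 (SE, adjusted p = 0.00383). Higher calls with small p were sap18 at 0.57 ± 0.11 (SE, adjusted p = 0.00772), srrm1 at 0.71 ± 0.14 (SE, adjusted p = 0.00808) for 1 of 3 probe sets, strap at 0.57 ± 0.12 (SE, adjusted p = 0.00921) and bcas2, of the PRPF19 complex, at 0.50 ± 0.11 (SE, adjusted p = 0.013). At 12 somites this list gave 2 higher and 7 lower of 162 (5.56%, where 11.3% of all were called). There khdrbs1b, a paralog of Sam68, read 1976, 1911 and 1918 with Foggy(DelCter) RNA and 1071, 1054 and 942 with control RNA, higher on every array (0.91 ± 0.12, SE, adjusted p = 0.000767), and prkrip1 gave 0.45 ± 0.12 (SE, adjusted p = 0.0343). The lower calls with the smallest p were celf2 at -0.72 ± 0.13 (SE, adjusted p = 0.00711) and -0.83 ± 0.20 (SE, adjusted p = 0.0212), pspc1, a paraspeckle protein gene, at -0.68 ± 0.15 (SE, adjusted p = 0.0146), and thoc2, of the TREX export complex, at -0.59 ± 0.14 (SE, adjusted p = 0.0207).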

How the data were processed

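RNA abundance was read on a 1-colour Affymetrix zebrafish array in 16 samples. The deposited values are intensity on a linear scale, 1 per probe set and array, and the authors had scaled each array to a 2% trimmed mean of 150.0 units, a property found from the values. The software, the probe summary and scan dates are not known here. Sequencing depth does not apply, and the number of arrays and the background limit precision.

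Groups came from the labels. Of the probe sets, 115 controls were left out. Names came from the platform annotation, in which 10795 of 15502 probe sets had 1 gene symbol, 135 several and 4572 none, and all 101 chosen probe sets matched a RefSeq gene by its number with no symbol changed. One probe set with several symbols, 1 of them matching, was not used.

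For each comparison, limma (lmFit and eBayes, limma 3.58.1, R 4.3.3) was run on log2(intensity + 16), over the 10851 probe sets whose mean reached the 30th percentile. The contrasts within numbers 1 to 3, between the number sets and between the mutant-labelled sets used the same fit. It held a mean for each label and number set over all 36 h arrays, and its spread was pooled over them. The mutant minus Foggy(DelCter) contrast likewise pooled the spread over its groups. Tests were 2-sided, with Benjamini-Hochberg adjustment over all 10851 and a threshold of 0.05. Arrays were used as deposited unless their log2 medians differed by over 0.2 within a comparison. They differed by 0.373 wherever numbers 1 to 3 entered, and those arrays were quantile normalized. Scripts were tested on simulated data.

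Deviations of same-numbered arrays from their group means correlated at 0.237, 0.23 and 0.181 at 12 somites. Over all 36 h arrays they correlated at 0.903, 0.838, 0.848 and 0.691. Those 36 h group means ran over both number sets, so the values carry the difference between the sets and do not show pairing. Within numbers 4 to 6 the correlations were 0.054, 0.282 and 0.345. The minimum set for pairing was 0.1, and 0.054 lies under it. The number was added as a block in further fits, and results not said to use a block come from fits without it. Named are supt5h, called members in numbers 4 to 6 and at 12 somites, the brightest probe set of each class, genes whose probe sets differ in call, and the 4 other splicing genes with the smallest p in each direction. Members and lists were chosen with earlier results of these data known. Alternatives were the other normalization, pseudocounts of 1 and 64, no filter or 1 at the 60th percentile, a robust prior with a trend on intensity, number and number set as blocks, joint fits and each array left out. No sequences were used.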

Additional observations from a re-analysis of the deposited data

Results flagged for a closer look

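For 5 of 96 splicing factor probe sets (5.21%, where 3.29% of all were called), the difference between arrays labelled mutant and wild type differed between the number sets, by limma's test of numbers 4 to 6 minus numbers 1 to 3. The log2 values were -0.92 ± 0.16 (SE, adjusted p = 0.0136) and -0.88 ± 0.16 (SE, adjusted p = 0.0153) for the hnrnpa0a probe sets, -0.88 ± 0.19 (SE, adjusted p = 0.0281) for hnrnpdl, -0.86 ± 0.17 (SE, adjusted p = 0.0225) for hnrnpa1b and 0.75 ± 0.15 (SE, adjusted p = 0.0233) for snrpd3. They rest on 1 wild type array in numbers 1 to 3 and on mutant-labelled arrays that kept supt5h signal. The 5 calls fell to 2 without mutant-labelled array 2 and to 3 without array 3.

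The mutant difference in numbers 4 to 6 also differed from that between Foggy(DelCter) and control RNA for 7 of 98 probe sets, all lower, by the test of the difference. That was 7.14%, where 10.6% of all probe sets were called and 4.88% were called lower. Stage, material and mutation or injection differ together between the compared differences and cannot be told apart. The log2 values were -1.18 for hnrnpdl, -1.04 and -0.87 for hnrnpa0a, -0.79 for srsf3b, -0.68 for hnrnpa1b, -0.67 for srsf6b and -0.61 for 1 hnrnpa0b probe set. Both contrasts use the arrays numbered 4 to 6.

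Among the 62 groups of values tested for 31 probe sets, 2 held an array far from the others, where chance flags about 1 in 20. Both were wild type array 1 in the group of 4 wild type arrays at 36 h: 411 units for hnrpkl, against 181, 182 and 169 on arrays 4 to 6, and 129 for 1 hnrnpa0b probe set, against 33.7, 44.8 and 39. The mutant-labelled arrays 1 to 3 read near that array, at 361, 371 and 382 for hnrpkl and 111, 117 and 109 for the hnrnpa0b probe set.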

How the results depend on the processing

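Counts of called splicing factor probe sets under other settings were as follows, and the cause of the changes was not tested. The share of all probe sets called is given for some settings only. That share also changes with the setting, so the counts alone do not set splicing factors apart. In numbers 4 to 6, 18 calls (18.6%, where 19.5% of all were called) became 31 in 1 fit over all 36 h arrays, and 10 to 17 with 1 array left out. They became 28 with the replicate number as a block, where the same-numbered arrays correlated at 0.054, 0.282 and 0.345 and were not taken as pairs. Over all 36 h arrays, 0 (where 0.221% of all were called) became 16 with the number set as a block (16.7%, where 13.1% of all were). It became 11 with the number as a block on the arrays numbered 1, 4, 5 and 6 only (11.3%, where 9.52% of all were). The count stayed 0 under the other alternatives. For the difference between number sets, 5 became 9 with a pseudocount of 64 and 9 with an intensity trend and robust prior, and 2 to 6 with 1 array left out. At 12 somites, 2 (2.02%, where 11.3% of all were called) became 0 with no filter or a pseudocount of 1, and 5 with a filter at the 60th percentile. The count was 7 with a pseudocount of 64, 8 with the trend, 5 with the replicate block (5.05%, where 14.8% of all were) and 0 to 3 with 1 array left out. For the mutant minus Foggy(DelCter) contrast, 7 became 11 with the 60th percentile filter, 11 with a pseudocount of 64 and 11 with the trend. With 1 array left out, this contrast gave 5 to 7 calls, that between the mutant-labelled number sets 65 to 77 beside 74, and that between stages 63 to 69 beside 72, all within 1.5 times. Of the values for 38 named results under the alternatives, 446 kept direction and side of the threshold, 66 lost and 2 gained a call, and 16 reversed, all in results that were not called. In numbers 4 to 6, leaving out 1 array gave -0.10 to 0.15 for srsf11, -0.047 to 0.079 for u2af2b, -0.12 to 0.15 for prpf19 and -0.20 to 0.070 for hnrnpa0l. Quantile values and 1 fit gave -0.0036 and -0.0034 for u2af2b and 0.097 and 0.096 for hnrnpa0l. At 12 somites, leaving out 1 array gave -0.094 to 0.20 for lsm7 and -0.047 to 0.13 for hnrnpa0l. Dim probe sets near the background limit what can be seen.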
